A study of Saccharomyces cerevisiae with 12 samples.

Results

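The respiratory chain and ATP synthase genes described here were 42 of the 7126 genes in a table of RNA-seq read counts from the budding yeast Saccharomyces cerevisiae. They were listed by systematic name, as nuclear genes with a known place in the chain, with no measured value in the rule, although earlier results of these data were known when the list was made. They comprised 3 NADH dehydrogenase genes, 5 genes for complex II, 9 for complex III, 2 for cytochrome c, 9 for complex IV, 12 for the ATP synthase and 2 for inhibitors of the ATP synthase. The study measured total RNA, depleted of ribosomal RNA, in 12 libraries from cells that lacked the intron of MMS2 (mms2Δi), cells that lacked the intron of YSF3 (ysf3Δi), and wild-type cells. Each genotype was represented by 2 strains, and each strain was sampled once at 48 h (stationary phase) and once in log phase, which gave 6 groups of 2 libraries. All strains were of BY background and grew in synthetic minimal medium with 2% glucose and supplements of histidine, leucine, uracil and lysine. MMS2 encodes a ubiquitin-conjugating enzyme variant of DNA damage tolerance and YSF3 a subunit of the SF3b splicing complex; neither belongs to the respiratory chain. The 2 strains of a genotype are the replicates, and how each strain was built is not given in the sources used here.

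Yeast has no multi-subunit complex I. Electrons from NADH enter through single-protein dehydrogenases, Ndi1 on the inner face of the inner mitochondrial membrane and Nde1 and Nde2 on its outer face, and electrons from succinate enter through complex II. They pass to ubiquinone, complex III, cytochrome c and complex IV, and the proton gradient built on the way drives the ATP synthase. Glucose represses many of these genes in yeast and its exhaustion relieves that repression; several subunits exist as isoform pairs whose genes respond differently to oxygen or carbon source.

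Letters known from this regulation were looked up upstream of the members, on both strands of a window of 300 bases that begins 400 bases before the start codon. The sequence was that of RefSeq assembly R64, the build named sacCer3. CCAAT, and the longer TNATTGG, whose last letters are the reverse complement of CCAAT, are letters bound by the yeast Hap2/3/4/5 factor. CCAAT was present in 35 of the 42 windows (83.3%), against 43.9% of the windows of all 6001 nuclear protein-coding genes, and TNATTGG in 30 (71.4%), against 15.8%. The 12 ATP synthase genes all held CCAAT, and 11 of them held TNATTGG. The core letters of the stress response element, AGGGG, were present in 17 members (40.5%), against 23.5% of all genes. The letters of the Hap1 site were found upstream of 1 member, QCR6 (2.38%, against 0.217%), and ATTGTT, core letters of the Rox1 site, upstream of 12 (28.6%, against 31.9%). The windows of COX4, CYT1, SDH9, CYC1, CYC7, NDE2 and STF1 held no CCAAT in either direction. A match is a description of letters, and a window without one says nothing about the factor.

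The following stretches carry TNATTGG or its reverse complement in capitals and stand for members of 5 complexes whose values are given later. All sequences are given 5′ to 3′ on the coding strand of the gene, with plus or minus naming that strand of sacCer3.
SDH1 (chrXI:171420-171466, minus strand): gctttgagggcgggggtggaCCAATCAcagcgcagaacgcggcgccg
RIP1 (chrV:106993-107039, plus strand): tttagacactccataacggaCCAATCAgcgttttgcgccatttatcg
COX9 (chrIV:334519-334565, minus strand): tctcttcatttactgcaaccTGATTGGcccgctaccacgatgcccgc
COX5A (chrXIV:531558-531604, plus strand): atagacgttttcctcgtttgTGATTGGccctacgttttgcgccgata
ATP16 (chrIV:442845-442891, plus strand): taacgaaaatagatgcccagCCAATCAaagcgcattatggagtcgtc
ATP17 (chrIV:1228362-1228408, plus strand): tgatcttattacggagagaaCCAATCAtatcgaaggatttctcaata
INH1 (chrIV:134927-134973, plus strand): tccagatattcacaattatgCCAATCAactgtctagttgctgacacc
The windows of CYC7 and NDE2, the members with the steepest change with growth phase, held no CCAAT but 3 and 2 copies of AGGGG. That of STF1, also without CCAAT, held 1. The other windows without CCAAT, those of SDH9, CYT1, CYC1 and COX4, held no AGGGG, nor did that of SDH1. SDH9 and SDH1 were also among the members with steep changes. The next stretches show 1 copy for CYC7, both for NDE2 and the single one of STF1, in capitals, as AGGGG or its reverse complement CCCCT.
CYC7 (chrV:80145-80189, minus strand): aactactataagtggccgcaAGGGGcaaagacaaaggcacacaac
NDE2 (chrIV:303053-303097, plus strand): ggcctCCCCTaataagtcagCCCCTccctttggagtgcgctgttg
STF1 (chrIV:229030-229070, plus strand): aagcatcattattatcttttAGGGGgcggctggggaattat
Across the members, the 30 with TNATTGG had a median log2 fold change of 48 h over log phase of 1.75 in wild-type cells and the 12 without it a median of 2.67. For mms2Δi over wild-type cells the medians with and without it were 1.011 and 0.63 at 48 h, and 0.70 and 0.04 in log phase, and for ysf3Δi cells 0.37 and 0.33 at 48 h, and 0.52 and 0.30 in log phase. These are descriptions with no test.

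The libraries held 4871513 to 16581925 counts in genes, and the members took 0.208% to 1.06% of them. Their lowest count in any library was 10, and all 42 passed the filter on low counts, among 6068 genes tested. Levels are given in CPM, a gene's counts relative to its library's total after TMM scaling, and, to compare genes with each other, in CPM per kb of coding sequence. Log2 fold changes come from 1 edgeR quasi-likelihood fit over all 12 libraries, with p-values adjusted by Benjamini-Hochberg over all genes tested and called under 0.05. The value after ± of a log2 fold change is an approximate standard error, taken as its size over the root of the F statistic. The strains were not all of 1 mating type by their markers: summed alpha-cell markers (5 genes) were 2538 CPM in wild-type strain 1 in log phase and 125 CPM at 48 h, against 24.4 to 45.4 CPM in the other 10 libraries. Summed a-cell markers (7 genes) were 34.6 CPM in that strain in log phase, against 1483 to 2039 CPM in the other 5 log-phase libraries. Reads on mitochondrial ribosomal RNA ran from 0.00505% to 0.851% of counts.

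The comparison of 48 h with log phase asks how the chain's mRNAs stood once the cultures had left exponential growth. In mms2Δi cells 42 of 42 members were called higher at 48 h, in ysf3Δi cells 40 and in wild-type cells 40, and none was called lower. Among all genes tested, 33.4%, 33.9% and 32.8% were called higher in those comparisons, 30.7%, 32.9% and 34.3% lower, and 64.1%, 66.8% and 67.1% either way. The members' median log2 fold change was 2.11 in mms2Δi cells, 1.81 in ysf3Δi cells and 1.83 in wild-type cells, with medians over all genes tested of 0.06, 0.03 and -0.01. Both 48 h libraries stood above both log-phase libraries for 42, 42 and 41 members, as did 43%, 42.6% and 41.5% of all genes tested. The exception in wild-type cells was ATP17. By complex, the medians in mms2Δi cells were 4.52 for cytochrome c, 3.97 for complex II, 3.78 for the inhibitors, 2.76 for complex III, 2.67 for the NADH dehydrogenases, 2.10 for complex IV and 1.37 for the ATP synthase. In ysf3Δi cells the medians in that order of complexes were 4.35, 3.36, 3.47, 2.06, 2.22, 1.35 and 0.78, and in wild-type cells 4.21, 3.05, 3.66, 2.14, 2.20, 1.61 and 0.83. By these medians cytochrome c stood highest and the ATP synthase lowest in all 3 genotypes. The cytochrome c median is the midpoint of 2 unlike genes, CYC1 at 2.35 and CYC7 at 6.07 in wild-type cells. CYC1 alone lay below the wild-type medians of complex II and of the inhibitors. In bulk RNA a larger share of cells with a transcript and more of it per cell cannot be told apart, and a share of the RNA pool is not an amount per cell.

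**Figure D1:**
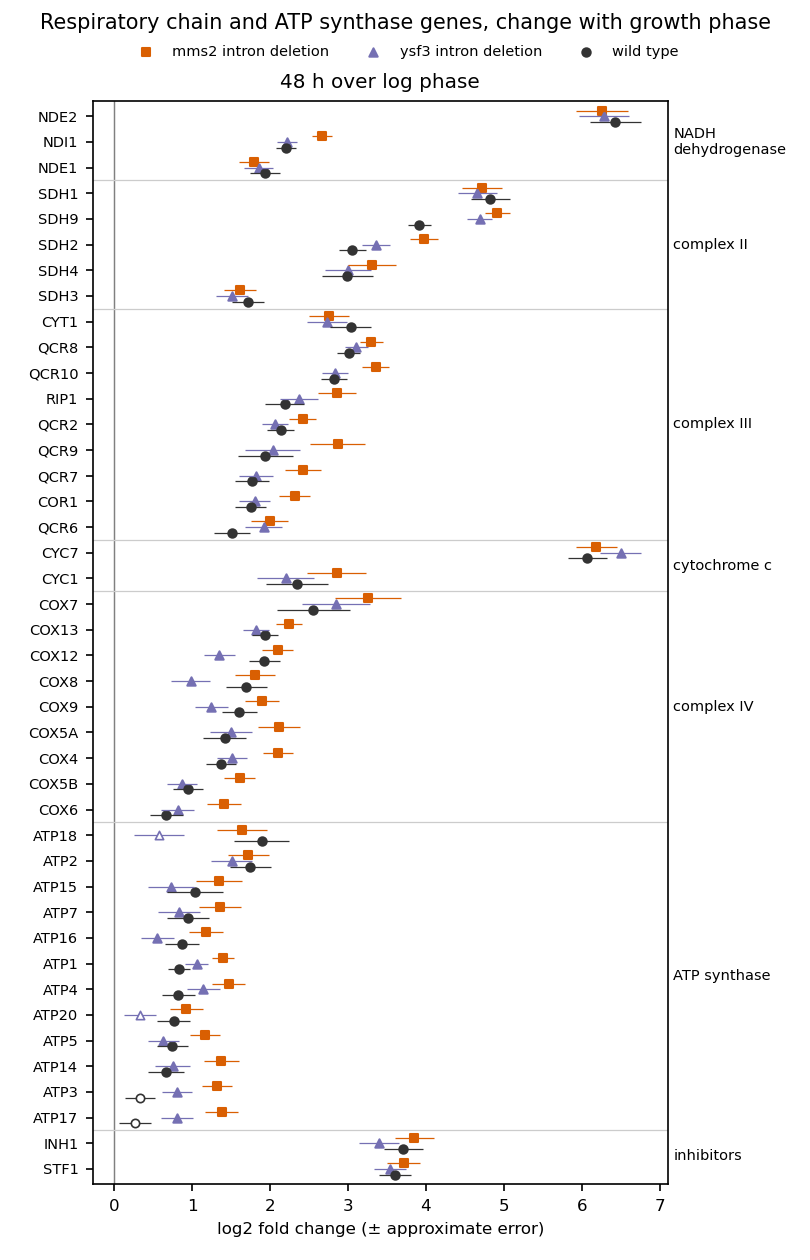
Log2 fold change of 48 h over log phase for the 42 members (1 line each, grouped by complex), in mms2Δi cells (squares), ysf3Δi cells (triangles) and wild-type cells (circles); bars are ± the approximate error, filled symbols passed an adjusted p of 0.05 and open symbols did not. All points lie right of 0, with CYC7 and NDE2 above 6 and the ATP synthase genes under 2.

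Among the NADH dehydrogenases, NDE2 changed most. NDE2 (YDL085W) read 117 and 100.02 CPM at 48 h and 0.820 and 1.96 CPM in log phase in mms2Δi cells. It had 120.3 and 160.0 CPM at 48 h and 1.83 and 1.76 CPM in log phase in ysf3Δi cells. Wild-type values were 142 and 129 CPM at 48 h and 1.12 and 1.98 CPM in log phase. Every 48 h library lay at or above 100 CPM and every log-phase library under 2 CPM, so the groups were far apart in all 3 genotypes. The log2 fold changes were 6.26 ± 0.33, 6.28 ± 0.32 and 6.43 ± 0.32 in the same order (edgeR, adjusted p = 1.11e-07, 7.44e-08 and 6.64e-08). NDE1 (YMR145C), the other external dehydrogenase, had 488 and 551 CPM at 48 h in wild-type cells, against 154 and 117 CPM in log phase. Its log2 fold changes were 1.80 ± 0.19 in mms2Δi cells, 1.85 ± 0.19 in ysf3Δi cells and 1.94 ± 0.19 in wild-type cells. NDI1 (YML120C), the internal enzyme, rose by 2.67 ± 0.13, 2.22 ± 0.12 and 2.20 ± 0.12 in mms2Δi cells, ysf3Δi cells and wild-type cells. Per kb of coding sequence NDE1 stayed the most abundant of the 3 in all 6 groups, with a wild-type mean of 308 ± 26.5 CPM per kb at 48 h (SD, n = 2), against 130.1 ± 6.62 for NDI1 and 83.0 ± 5.61 for NDE2. In log phase the wild-type means were 80.6 ± 15.8, 28.3 ± 1.69 and 0.946 ± 0.367 CPM per kb for NDE1, NDI1 and NDE2.

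In complex II, the succinate dehydrogenase, all 5 genes rose in every genotype. The flavoprotein gene SDH1 (YKL148C) had 995 and 965 CPM at 48 h and 27.2 and 47.0 CPM in log phase in mms2Δi cells. The ysf3Δi cells read 799.5 and 782 CPM at 48 h and 29.0 and 33.4 CPM in log phase. Wild-type SDH1 stood at 619 and 590.4 CPM at 48 h and 18.8 and 23.8 CPM in log phase. The lowest 48 h library was more than 10 times the highest log-phase library. SDH1 thus had log2 fold changes of 4.72 ± 0.25, 4.66 ± 0.25 and 4.83 ± 0.25 (adjusted p = 1.21e-07, 9.97e-08 and 8.56e-08). SDH9, described with the isoforms, had the highest changes of the complex in both deletions. SDH2 (YLL041C), the iron-sulfur subunit, changed by 3.97 ± 0.18, 3.36 ± 0.18 and 3.05 ± 0.17. The membrane anchors moved less: SDH4 (YDR178W) by 3.31 ± 0.31, 2.998 ± 0.30 and 2.99 ± 0.33, and SDH3 (YKL141W) by 1.61 ± 0.20, 1.52 ± 0.20 and 1.72 ± 0.20. In wild-type cells SDH4 had the fewest reads of the 5, at 13.0 and 15.1 CPM at 48 h and 2.25 and 1.32 CPM in log phase.

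Complex III passes electrons from ubiquinol to cytochrome c, and its 9 nuclear genes rose in all 3 genotypes, with wild-type log2 fold changes of 1.51 to 3.03. CYT1 (YOR065W), which encodes cytochrome c1, had 89.6 and 108 CPM at 48 h and 13.5 and 10.7 CPM in log phase in wild-type cells, a log2 fold change of 3.03 ± 0.26 (adjusted p = 2.20e-06). QCR8 (YJL166W), a small subunit, had 269 and 274.5 CPM at 48 h and 32.3 and 35.2 CPM in log phase, a change of 3.01 ± 0.15 (adjusted p = 6.47e-08). Both replicates were close to each other in each phase. At the low end stood QCR6 (YFR033C), an acidic small subunit, at 1.51 ± 0.23, and COR1 (YBL045C), a core subunit, at 1.75 ± 0.20. The other core subunit, QCR2 (YPR191W), changed by 2.14 ± 0.17 and the Rieske iron-sulfur gene RIP1 (YEL024W) by 2.19 ± 0.25. In mms2Δi cells the same 6 genes gave 2.76 ± 0.26 for CYT1, 3.30 ± 0.15 for QCR8, 2.00 ± 0.24 for QCR6, 2.31 ± 0.20 for COR1, 2.42 ± 0.17 for QCR2 and 2.86 ± 0.25 for RIP1. The ysf3Δi cells gave 2.74 ± 0.26, 3.11 ± 0.15, 1.92 ± 0.24, 1.80 ± 0.20, 2.06 ± 0.17 and 2.37 ± 0.24 in that order. Levels within the complex were uneven: at 48 h the gene with the highest group mean per kb, QCR6, exceeded the lowest, RIP1, 11.8-fold in mms2Δi cells, 11.2-fold in ysf3Δi cells and 36.3-fold in wild-type cells. In log phase the ratio of the same genes was 21.4 in mms2Δi cells, 15.3 in ysf3Δi cells and 57.4 in wild-type cells. In replicate 2 of ysf3Δi cells at 48 h QCR8, and not QCR6, was the highest.

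Complex IV, cytochrome c oxidase, had 9 nuclear genes here, and all 9 rose in each genotype, by 0.67 to 2.56 on the log2 scale in wild-type cells. COX7 (YMR256C) and COX13 (YGL191W), both small subunits, headed the list. COX7 read 3.97 and 7.17 CPM at 48 h and 1.32 and 0.658 CPM in log phase in wild-type cells, a log2 fold change of 2.56 ± 0.47 that rests on few reads (adjusted p = 0.000590). COX13 read 157 and 185 CPM at 48 h and 47.5 and 42.4 CPM in log phase, a change of 1.93 ± 0.17 (adjusted p = 2.14e-06). COX6 (YHR051W) changed least, with 52.9 and 66.2 CPM at 48 h and 41.5 and 33.7 CPM in log phase (0.67 ± 0.22, adjusted p = 0.0177). Its call in wild-type cells ended without either wild-type strain 2 library. COX7 had the lowest mean per kb of the 9 in all 6 groups, though in replicate 2 of mms2Δi cells at 48 h COX5B was lower. In mms2Δi cells COX7, COX13 and COX6 changed by 3.26 ± 0.43, 2.25 ± 0.17 and 1.41 ± 0.22. The ysf3Δi cells had 2.85 ± 0.44, 1.82 ± 0.17 and 0.81 ± 0.21 for these genes.

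The ATP synthase changed least of the complexes, and its genes held the only members that were not called. In wild-type cells 10 of 12 rose, with ATP17 at 0.27 ± 0.21 (adjusted p = 0.265) and ATP3 at 0.33 ± 0.19 (adjusted p = 0.142) not called. In ysf3Δi cells 10 of 12 rose, with ATP18 at 0.58 ± 0.32 (adjusted p = 0.138) and ATP20 at 0.33 ± 0.21 (adjusted p = 0.181) not called. In mms2Δi cells all 12 rose, by 0.93 to 1.72. The highest wild-type changes were those of ATP18 (YML081C-A), a small membrane subunit, and ATP2 (YJR121W), the catalytic beta subunit. ATP2 read 1284 and 1709 CPM at 48 h and 361 and 546 CPM in log phase in mms2Δi cells. It read 1275 and 1204 CPM at 48 h and 366 and 506 CPM in log phase in ysf3Δi cells. In wild-type cells it had 494 and 664 CPM at 48 h and 194 and 152 CPM in log phase. ATP2 was thus 3.30-, 2.84- and 3.35-fold higher at 48 h (log2 1.72 ± 0.26, 1.51 ± 0.26 and 1.74 ± 0.26). ATP17 (YDR377W), the f subunit of the membrane part, had 145 and 101.2 CPM at 48 h and 94.4 and 109 CPM in log phase in wild-type cells, where the phases overlapped. ATP3 (YBR039W), the gamma subunit, had 399 and 348 CPM at 48 h and 305 and 288 CPM in log phase there. In mms2Δi cells ATP17 changed by 1.38 ± 0.21 and ATP3 by 1.32 ± 0.19, and ATP17 had 115 and 151 CPM at 48 h there, against 55.3 and 47.0 CPM in log phase. Several of the small changes rest on single libraries: without replicate 2 of wild-type log phase or replicate 2 of wild-type 48 h, the calls of ATP5, ATP7, ATP14, ATP15, ATP16 and ATP20 ended in wild-type cells. Without both libraries of wild-type strain 2 those of COX5B, COX7 and ATP18 ended there too, and 30 of 40 stayed. Without replicate 2 of ysf3Δi cells in log phase those of ATP5, ATP7, ATP14, ATP15, ATP16, ATP17, COX6 and COX8 ended in those cells, and without replicate 1 of ysf3Δi cells at 48 h those of ATP5, ATP7, ATP14, ATP15 and ATP16.

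Both genes for inhibitors of the ATP synthase's hydrolysis of ATP rose in all 3 genotypes. INH1 (YDL181W) had 82.1 and 102 CPM at 48 h and 5.001 and 7.75 CPM in log phase in mms2Δi cells. The ysf3Δi cells had 52.6 and 47.5 CPM of INH1 at 48 h and 5.81 and 3.72 CPM in log phase, and wild-type cells 63.1 and 58.1 CPM at 48 h and 4.37 and 4.85 CPM in log phase. The phases did not overlap in any genotype. Log2 fold changes were 3.85 ± 0.25, 3.40 ± 0.25 and 3.71 ± 0.25 for INH1 (adjusted p = 3.74e-07, 8.04e-07 and 4.13e-07) and 3.72 ± 0.21, 3.54 ± 0.21 and 3.61 ± 0.21 for STF1 (YDL130W-A), a paralog of INH1 with a similar role. The highest change of a subunit gene of the enzyme in wild-type cells was 1.89 ± 0.35, for ATP18. No test of the difference between the inhibitors and the subunits was made.

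Cytochrome c is encoded by CYC1 (YJR048W), the main isoform of growing cells with oxygen, and CYC7 (YEL039C), the minor isoform. CYC7 read 103 and 86.8 CPM at 48 h and 0.984 and 1.58 CPM in log phase in mms2Δi cells. The ysf3Δi cells read 91.0 and 108 CPM at 48 h and 0.796 and 1.35 CPM in log phase. Wild-type libraries read 112 and 92.9 CPM at 48 h and 1.46 and 1.56 CPM in log phase. The 6 libraries at 48 h thus lay close together. Those of log phase ran from 0.796 to 1.58 CPM and rest on few reads, with 10 to 26 counts of CYC7. CYC1 read 43.4 and 64.8 CPM at 48 h and 6.40 and 8.65 CPM in log phase in mms2Δi cells. It read 37.7 and 31.4 CPM at 48 h and 9.23 and 5.82 CPM in log phase in ysf3Δi cells, and 11.3 and 16.9 CPM at 48 h and 3.97 and 1.74 CPM in log phase in wild-type cells. CYC1 was lowest in wild-type cells in both phases. Log2 fold changes of 48 h over log phase were 6.18 ± 0.26, 6.50 ± 0.27 and 6.07 ± 0.25 for CYC7, and 2.85 ± 0.37, 2.20 ± 0.37 and 2.35 ± 0.40 for CYC1. Per kb of coding sequence, CYC7 made up 69.5 and 56.4% of the pair at 48 h and 12.9 and 14.98% in log phase in mms2Δi cells. Its share was 70.0 and 76.8% at 48 h and 7.68 and 18.3% in log phase in ysf3Δi cells. The wild-type share was 90.5 and 84.1% at 48 h and 26.1 and 46.4% in log phase. CYC7 was the more abundant isoform in all 6 libraries at 48 h and the less abundant in all 6 of log phase. In replicate 2 of wild-type log phase the pair was close, at 26 counts for CYC7 and 29 for CYC1. The log2 ratio of CYC7 to CYC1, with 0.5 CPM added, averaged 1.72 ± 1.00 at 48 h and -1.72 ± 0.97 in log phase (SD, n = 6 each), a difference of 3.45. It was higher at 48 h in 6 of 6 strains, with p = 0.00216 in a two-sided exact permutation test, the smallest that 6 against 6 libraries can give, and 0.00649 when adjusted over the 3 isoform pairs. That test leaves out that each strain gave a library in both phases. An exact sign-flip test within the 6 strains gave p = 0.0312, the smallest it can give. Adjusted over the 3 pairs, an adjustment chosen after the data were seen, it was 0.0938 and so not called. With 6 strains the adjusted value could fall under 0.05 only if another pair also reached the smallest p. The adjusted sign-flip test therefore cannot decide whether the call holds. The difference was 3.002 in mms2Δi cells, 3.85 in ysf3Δi cells and 3.49 in wild-type cells.

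In the other pairs the ratio differed less between the phases. COX5A (YNL052W) is known as the subunit 5 isoform of cells with oxygen and COX5B (YIL111W) as that of cells with little. COX5B read 63.4 and 57.6 CPM at 48 h and 20.01 and 19.6 CPM in log phase in mms2Δi cells, and 48.7 and 50.4 CPM at 48 h and 32.5 and 21.7 CPM in log phase in ysf3Δi cells. Wild-type COX5B had 36.3 and 44.8 CPM at 48 h and 21.1 and 21.01 CPM in log phase. COX5A read 57.1 and 106 CPM at 48 h and 20.9 and 17.1 CPM in log phase in mms2Δi cells, and 56.2 and 54.3 CPM at 48 h and 19.7 and 19.4 CPM in log phase in ysf3Δi cells. Wild-type COX5A had 33.1 and 39.1 CPM at 48 h and 15.7 and 11.4 CPM in log phase. Both genes were higher at 48 h in every strain. COX5B rose by 1.61 ± 0.19, 0.87 ± 0.19 and 0.95 ± 0.19 in mms2Δi cells, ysf3Δi cells and wild-type cells, and COX5A by 2.12 ± 0.27, 1.499 ± 0.27 and 1.42 ± 0.27. COX5B made up 52.9 and 35.4% of the pair per kb at 48 h and 49.2 and 53.7% in log phase in mms2Δi cells, and 46.7 and 48.5% at 48 h and 62.7 and 53.0% in log phase in ysf3Δi cells. Its wild-type share was 52.6 and 53.7% at 48 h and 57.6 and 65.1% in log phase. The log2 ratio of COX5B to COX5A differed by -0.50 between the phases, and was higher at 48 h in 1 of 6 strains (two-sided exact permutation p = 0.0303, adjusted over the 3 pairs 0.0455). That call was lost without both libraries of wild-type strain 1 (difference -0.54, exact permutation p = 0.0635) and in the exact sign-flip test within strains (p = 0.0625, adjusted 0.0938).

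SDH9 (YJL045W) encodes another flavoprotein like that of SDH1. SDH9 read 114 and 133 CPM at 48 h and 4.10 and 4.06 CPM in log phase in mms2Δi cells, and 102 and 111 CPM at 48 h and 4.06 and 4.197 CPM in log phase in ysf3Δi cells. Wild-type SDH9 had 92.1 and 103 CPM at 48 h and 6.68 and 6.28 CPM in log phase. It rose by 4.92 ± 0.16, 4.69 ± 0.16 and 3.91 ± 0.15 (adjusted p = 7.31e-09, 9.44e-09 and 1.58e-08). SDH1 remained the more abundant gene of the pair in all 12 libraries. SDH9 made up 10.4 and 12.2% of the pair per kb at 48 h and 13.2 and 8.02% in log phase in mms2Δi cells, and 11.4 and 12.5% at 48 h and 12.4 and 11.2% in log phase in ysf3Δi cells. Its wild-type share was 13.1 and 14.98% at 48 h and 26.4 and 21.1% in log phase. The log2 ratio of SDH9 to SDH1 differed by -0.37 between the phases and was higher at 48 h in 2 of 6 strains (two-sided exact permutation p = 0.279, adjusted 0.279). With 5 CPM added in place of 0.5 the difference was -1.001 (exact permutation p = 0.00433). These 5 CPM are close to the level of SDH9 in log phase, and adding them raised the log-phase ratio more than that at 48 h. By genotype, with 0.5 CPM added, the difference was -0.00 in mms2Δi cells, -0.11 in ysf3Δi cells and -0.995 in wild-type cells, each over 2 strains. In these paralog pairs the longest exact run shared by the coding sequences was 35 nt for CYC7 and CYC1, 12 nt for COX5B and COX5A, 23 nt for SDH9 and SDH1 and 11 nt for NDE2 and NDE1. How the authors treated reads that match more than 1 place is not given in the sources used here.

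**Figure D2:**
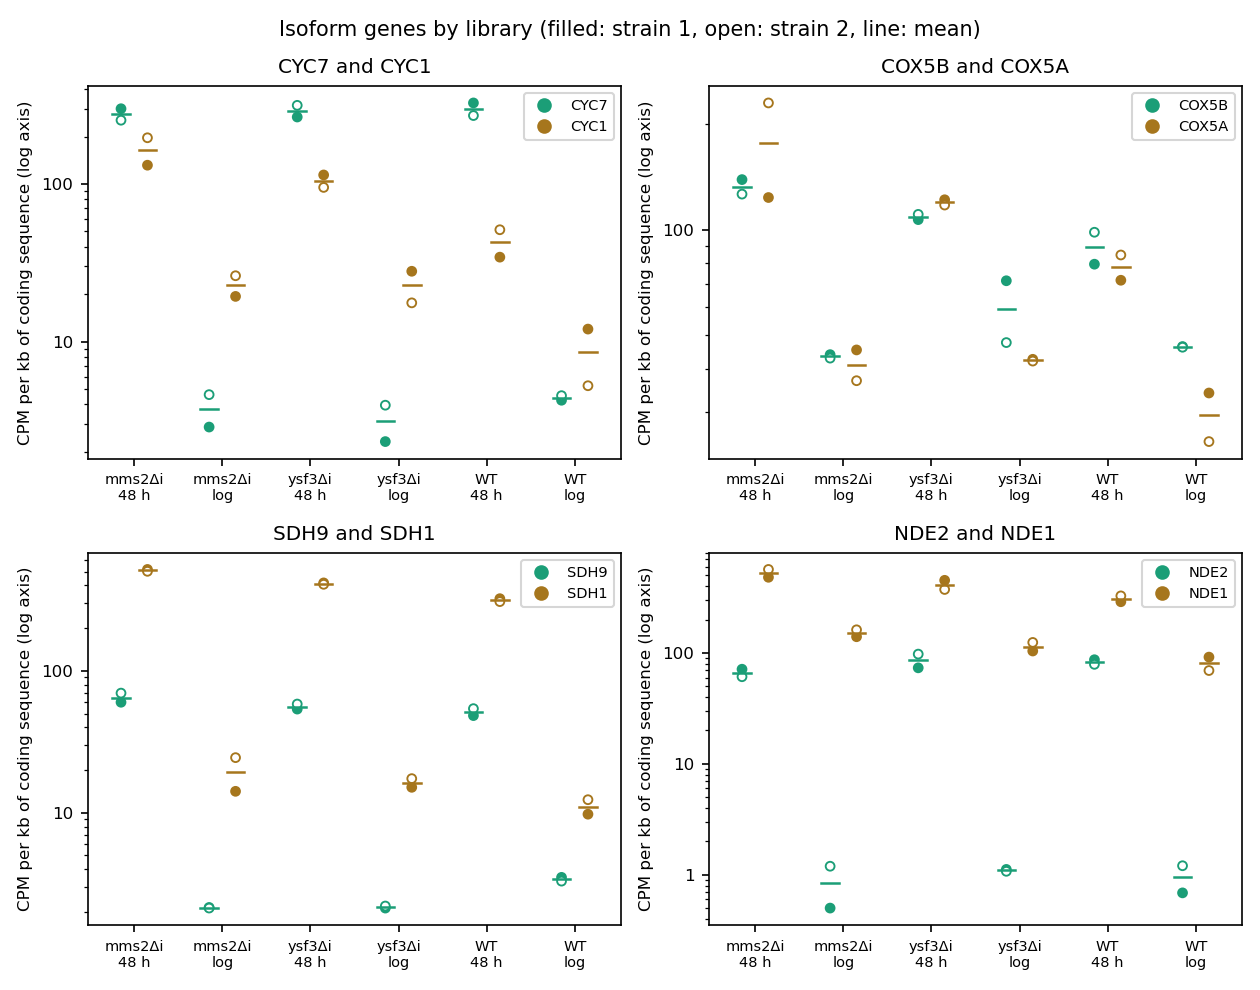
Level of each gene of 4 paralog pairs in CPM per kb of coding sequence (log axis) by group (mms2Δi and ysf3Δi, MMS2 and YSF3 intron deletion strains; WT, wild type); each point is a library, filled for strain 1 and open for strain 2, and lines are means of 2. CYC7 stands above CYC1 at 48 h and below it in log phase in all genotypes, while SDH9 and NDE2 stay below SDH1 and NDE1.

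Summed over its genes, each complex was higher at 48 h in every strain. The 42 members summed to 9549.9 and 11570.5 CPM at 48 h and 2346 and 2631 CPM in log phase in mms2Δi cells. The sums were 8609 and 7966 CPM at 48 h and 2477 and 2363 CPM in log phase in ysf3Δi cells. Wild-type sums were 6281 and 6515 CPM at 48 h and 1974 and 1963 CPM in log phase. At 48 h all mms2Δi and ysf3Δi libraries thus stood above both wild-type libraries. ATP synthase genes held most of it in log phase, with 1274 and 1444 CPM in mms2Δi cells, 1366 and 1358 CPM in ysf3Δi cells and 1094 and 1034 CPM in wild-type cells. Complex II summed to 1213 and 1169.9 CPM in wild-type cells at 48 h and 101.01 and 111 CPM in log phase. No test was made of the sums.

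**Figure D3:**
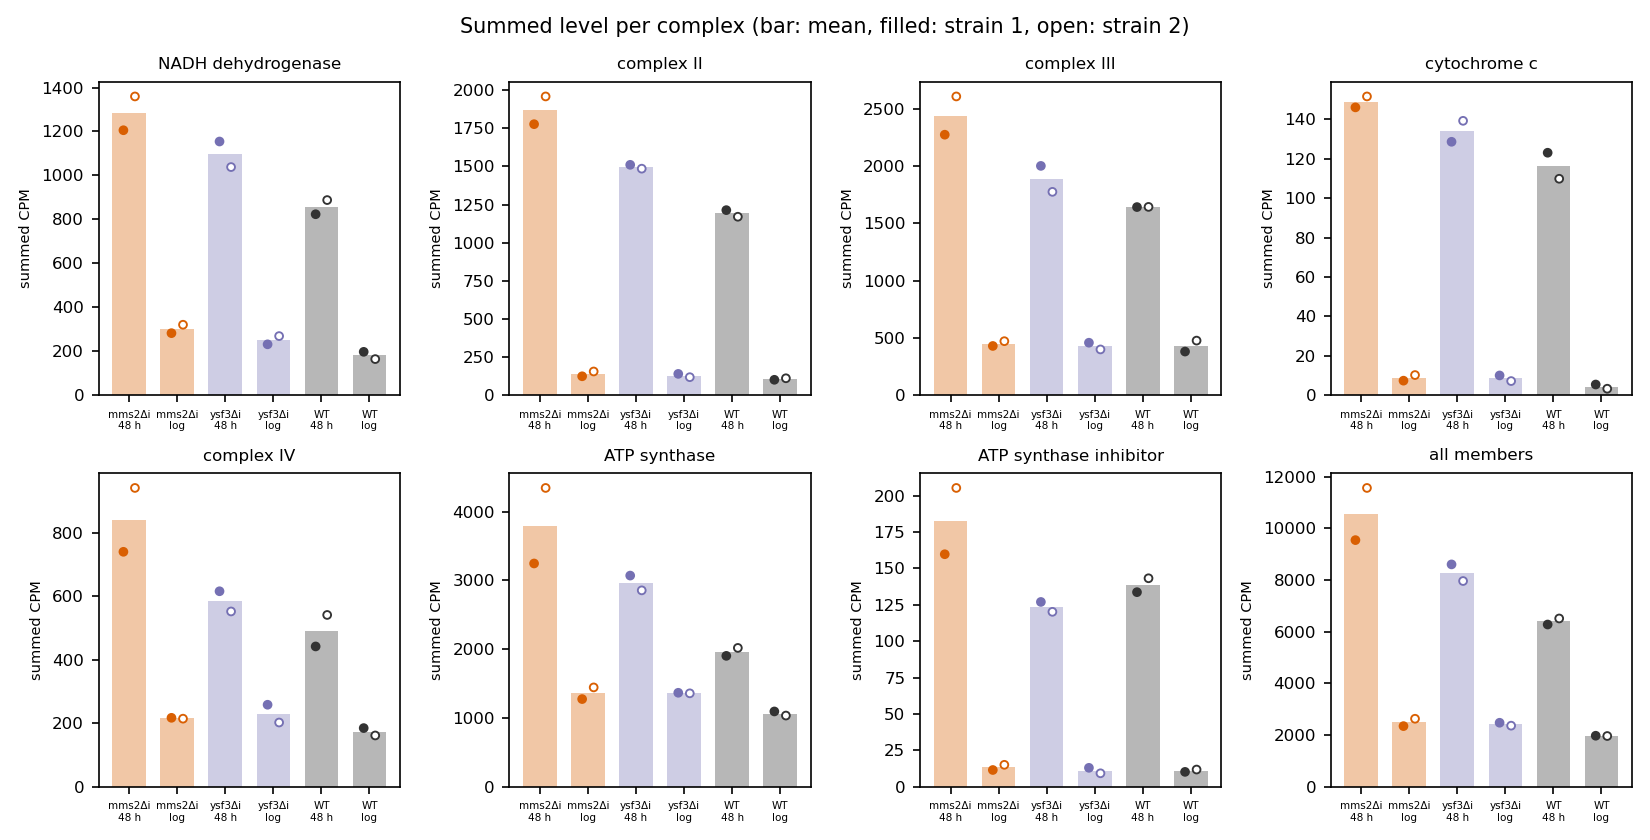
Summed level of the genes of each complex in CPM (linear axes from 0) by group (mms2Δi and ysf3Δi, MMS2 and YSF3 intron deletion strains; WT, wild type); bars are means of 2 libraries, filled points strain 1 and open points strain 2. All sums are higher at 48 h than in log phase, and the 48 h sums of all members are highest in mms2Δi cells.

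The next comparisons set each intron deletion against wild-type cells within a growth phase. They share their wild-type libraries, so the values of the deletions are not independent of each other. Wild-type strain 1 carried alpha-cell markers and all deletion strains carried a-cell markers. Genotype is thus partly mixed with mating type and strain, and loss of the intron cannot be fully told apart from these. At 48 h mms2Δi cells had higher levels than wild-type cells for 26 of 42 members and lower levels for none; 8.54% of all genes tested were called higher and 2.09% lower, 10.6% in all. The median log2 fold change was 0.86, against 0.04 over all genes tested, and both mms2Δi libraries lay above both wild-type libraries for 36 members and for 36.1% of all genes tested. Calls by complex were 6 of 9 in complex IV, 6 of 9 in complex III, 2 of 5 in complex II, 1 of 2 for cytochrome c (CYC1), 2 of 3 NADH dehydrogenases, 9 of 12 in the ATP synthase and 0 of 2 inhibitors. ATP15 (YPL271W), the epsilon subunit, had 12.2 and 13.97 CPM in mms2Δi cells, against 2.65 and 2.89 CPM in wild-type cells (2.23 ± 0.33, adjusted p = 0.0139). ATP16 (YDL004W), the delta subunit, had 88.5 and 132 CPM, against 37.1 and 46.9 CPM in wild-type cells (1.39 ± 0.22, adjusted p = 0.0139). RIP1 had 60.8 and 94.8 CPM, against 22.5 and 30.3 CPM in wild-type cells (1.55 ± 0.23, adjusted p = 0.0139). In these genes the lower mms2Δi library was well above the higher wild-type library. COR1 and QCR2 rose by 1.34 ± 0.19 and 1.03 ± 0.16, and the small complex IV gene COX9 (YDL067C) by 1.24 ± 0.21. The 7 members with the largest phase change in mms2Δi cells were not called: NDE2 was at -0.33 ± 0.24, CYC7 at -0.11 ± 0.19, SDH9 at 0.34 ± 0.13, SDH1 at 0.70 ± 0.22, SDH2 at 0.56 ± 0.16, INH1 at 0.61 ± 0.22 and STF1 at 0.22 ± 0.18, with adjusted p from 0.0501 to 0.723. The calls depend on single libraries. Without replicate 1 of wild-type 48 h or replicate 2 of mms2Δi cells at 48 h edgeR called 0 members, with 29 and 28 at an unadjusted p under 0.05, while DESeq2's Wald test on all libraries called 29. Replicate 1 of wild-type 48 h is the strain with alpha-cell markers; without both libraries of that strain 0 members were called, 29 were at an unadjusted p under 0.05, and the median was 0.75.

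In log phase mms2Δi cells had 18 members higher and 3 lower than wild-type cells, where 13.9% and 13.3% of all genes tested were called, 27.2% in all. The median was 0.48, against -0.01 over all genes, and both mms2Δi libraries lay above both wild-type libraries for 28 members (36.3% of all genes tested) and below for 7 (37.4%). The higher calls included ATP15 with 4.02 and 6.32 CPM in mms2Δi cells, against 1.59 and 1.14 CPM in wild-type cells (1.92 ± 0.33, adjusted p = 0.0116). ATP2 had 361 and 546 CPM, against 194 and 152 CPM in wild-type cells (1.39 ± 0.26, adjusted p = 0.0120). ATP18 rose by 1.72 ± 0.35, ATP16 by 1.08 ± 0.22, NDE1 by 0.91 ± 0.18 and CYC1 by 1.41 ± 0.40. The lower genes were ATP17, ATP3 and SDH9: ATP17 had 55.3 and 47.0 CPM in mms2Δi cells, against 94.4 and 109 CPM in wild-type cells (-0.99 ± 0.21, adjusted p = 0.0131). ATP3 was at -0.66 ± 0.19 (adjusted p = 0.0300) and SDH9 at -0.67 ± 0.16 (adjusted p = 0.0168). Of the 12 ATP synthase genes 7 were called higher and 2 lower, against 13.9% and 13.3% of all genes tested. The 2 lower calls lie near the share of all genes called lower. When libraries were scaled by their totals alone, the split was 15 higher and 6 lower. Without replicate 2 of wild-type log phase or replicate 2 of mms2Δi cells in log phase edgeR called 0 members, with 19 and 20 at an unadjusted p under 0.05, against 21 by DESeq2 on all libraries. Without both libraries of the strain with alpha-cell markers 17 members were called, 14 higher and 3 lower.

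For ysf3Δi cells in log phase 15 members were higher and 5 lower than in wild-type cells, against 13.7% and 13.5% of all genes tested, 27.2% in all. The median was 0.49, against -0.01 over all genes tested. ATP15 had 6.61 and 4.94 CPM in ysf3Δi cells, against 1.59 and 1.14 CPM in wild-type cells (2.08 ± 0.33, adjusted p = 0.00537). ATP16 had 59.4 and 49.3 CPM, against 26.8 and 19.5 CPM in wild-type cells (1.23 ± 0.22, adjusted p = 0.00664). ATP2, QCR2 and COR1 followed, at 1.33 ± 0.26, 0.85 ± 0.17 and 0.97 ± 0.19. Members that fell were ATP17, at -1.10 ± 0.21 (adjusted p = 0.00722), QCR6, at -0.91 ± 0.23, QCR10, at -0.73 ± 0.17, SDH9, at -0.65 ± 0.16, and ATP3, at -0.61 ± 0.19. ATP17 read 53.1 and 41.9 CPM in ysf3Δi cells, against 94.4 and 109 CPM in wild-type cells. QCR6 read 139 and 107 CPM, against 175 and 285 CPM in wild-type cells, whose strains lay apart from each other. SDH9 read 4.06 and 4.197 CPM, against 6.68 and 6.28 CPM in wild-type cells. Without replicate 2 of wild-type log phase edgeR called 0 members (19 at an unadjusted p under 0.05; DESeq2 on all libraries called 24), and without replicate 1 of ysf3Δi cells in log phase 13. A fit of only the 4 libraries compared called 7. Without both libraries of the strain with alpha-cell markers 17 members were called.

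At 48 h ysf3Δi cells had 5 members higher and 1 lower than wild-type cells, against 2.49% and 0.28% of all genes tested, 2.77% in all. The median was 0.37, against 0.01 over all genes tested, and both ysf3Δi libraries lay above both wild-type libraries for 27 members (32.5% of all genes tested). The 5 were COR1 at 1.02 ± 0.19, RIP1 at 1.18 ± 0.23, QCR2 at 0.77 ± 0.16, SDH4 at 1.39 ± 0.28 and ATP15 at 1.77 ± 0.32, with adjusted p of 0.0373, 0.0373, 0.0423, 0.0373 and 0.0373. COR1 had 375 and 349 CPM in ysf3Δi cells, against 151 and 206 CPM in wild-type cells. QCR10 (YHR001W-A), the lower gene, had 55.4 and 51.8 CPM in ysf3Δi cells, against 92.6 and 83.5 CPM in wild-type cells (-0.71 ± 0.15, adjusted p = 0.0423). All 6 calls lie near the threshold, and all ended without replicate 1 of wild-type 48 h, replicate 1 or replicate 2 of ysf3Δi cells at 48 h, or replicate 2 of mms2Δi cells in log phase, which is no part of the comparison but of the shared estimate of the spread. With those left out edgeR called 0 members, with 12, 13, 16 and 21 at an unadjusted p under 0.05, and without replicate 2 of wild-type 48 h it called 3; DESeq2 on all libraries called 11, and a fit of only the 4 libraries compared 16. Without both libraries of the strain with alpha-cell markers 0 were called, with 11 at an unadjusted p under 0.05 and a median of 0.30.

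**Figure D4:**
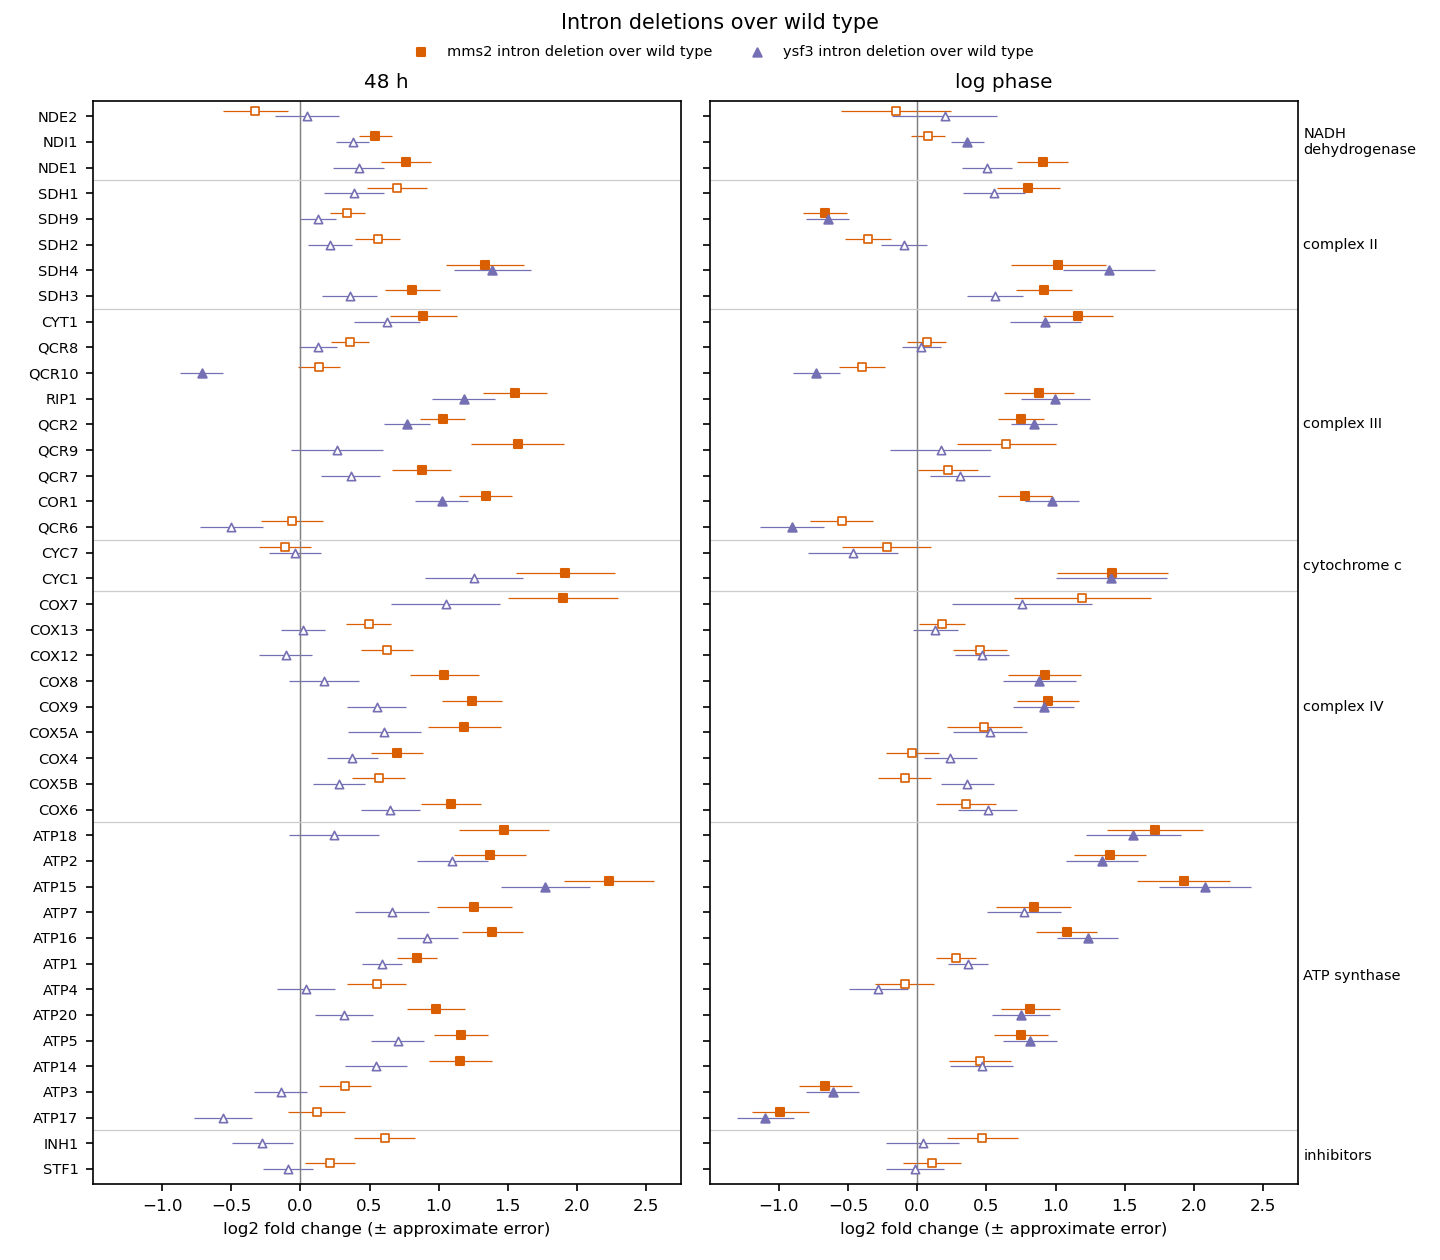
Log2 fold change of mms2Δi cells (squares) and ysf3Δi cells (triangles) over wild-type cells for the 42 members (1 line each, grouped by complex), at 48 h (left) and in log phase (right); bars are ± the approximate error, filled symbols passed an adjusted p of 0.05 and open symbols did not. At 48 h filled squares lie only right of 0, while in log phase ATP17, ATP3 and SDH9 have filled symbols left of 0 for both deletions.

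Side by side, and with the wild-type libraries they share, the log2 fold changes of ATP15 were 2.23 in mms2Δi cells and 1.77 in ysf3Δi cells at 48 h, and 1.92 and 2.08 in log phase. ATP15 rests on few reads in wild-type cells, with 14 and 46 counts at 48 h and 24 and 19 in log phase. For CYC1 the log2 fold changes were 1.92 and 1.26 at 48 h, and 1.41 and 1.40 in log phase. The ysf3Δi value of CYC1 at 48 h was not called (adjusted p = 0.0822) and the other 3 were.

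Whether the change with growth phase itself differed between a deletion and wild-type cells was tested by the difference of the phase changes. edgeR called no member and no gene in either deletion (0% of 6068), and DESeq2 called 0 members. At an unadjusted p under 0.05 stood 568 genes for mms2Δi cells and 284 for ysf3Δi cells, with 10 and 2 members among them. The members' smallest adjusted p was 0.502, for COX4 in mms2Δi cells, where its phase change was 2.10 ± 0.20, against 1.37 ± 0.19 in wild-type cells. SDH9 was among the 10 and the 2, with differences of 1.006 ± 0.20 and 0.78 ± 0.20 (adjusted p = 0.502 and 0.905). The median difference over the members was 0.42 for mms2Δi cells and -0.03 for ysf3Δi cells, against 0.09 and 0.04 over all genes tested.

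Of the 42 members only COX5B, QCR9 (YGR183C) and QCR10 contain an intron, and all 3 introns are present in every strain as far as the labels say. Their reference sequences are shown because the study concerns introns, with the 5′ splice site, the branch site letters TACTAAC and the last 3 bases in capitals.
COX5B (chrIX:155223-155310, plus strand): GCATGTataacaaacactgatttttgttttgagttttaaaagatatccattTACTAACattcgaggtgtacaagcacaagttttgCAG
QCR9 (chrVII:859261-859473, minus strand): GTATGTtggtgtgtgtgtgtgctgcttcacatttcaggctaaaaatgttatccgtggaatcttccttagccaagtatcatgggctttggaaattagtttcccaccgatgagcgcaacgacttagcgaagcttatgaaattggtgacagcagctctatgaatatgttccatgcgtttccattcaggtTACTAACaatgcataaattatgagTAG
QCR10 (chrVIII:107832-107894, plus strand): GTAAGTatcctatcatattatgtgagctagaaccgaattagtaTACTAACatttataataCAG
The COX5B intron, of 88 nt, begins with GCATGT, QCR9's of 213 nt with GTATGT and QCR10's of 63 nt with GTAAGT. In ysf3Δi cells QCR10 was lower than in wild-type cells in both phases, at -0.71 ± 0.15 at 48 h and -0.73 ± 0.17 in log phase, whereas QCR9 was at 0.26 ± 0.33 and 0.17 ± 0.36 and COX5B at 0.28 ± 0.19 and 0.36 ± 0.19, not called. The ysf3Δi call of QCR10 at 48 h ended with the replicate number as a block. Its call in log phase ended in a fit of only the libraries compared. QCR10 in mms2Δi cells was at 0.13 ± 0.15 at 48 h and -0.40 ± 0.17 in log phase, not called. The counts are per gene, so spliced and unspliced RNA were not told apart.

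Other genes of the pathway were described by lists of known roles. All 7 mitochondrially encoded subunits measured rose at 48 h in both deletions and 6 of 7 in wild-type cells, where ATP8, at 0 to 0.567 CPM, was not called. Their sums were 15359 and 23395 CPM at 48 h and 2554 and 3110.2 CPM in log phase in mms2Δi cells, and 15117 and 16614 CPM at 48 h and 2861 and 2389 CPM in log phase in ysf3Δi cells. Wild-type sums were 6769 and 10446 CPM at 48 h and 1564 and 1003 CPM in log phase. Against wild-type cells, 6 of the 7 were higher in mms2Δi cells at 48 h and 5 in log phase, and 1 and 5 in ysf3Δi cells. Of all genes tested 8.54% and 13.9% were called higher in mms2Δi cells at 48 h and in log phase, and 2.49% and 13.7% in ysf3Δi cells. Counts of this list were not recomputed with a library left out, and calls of the 42 members in the same comparisons fell to 0 without single libraries. COB, the cytochrome b of complex III, and COX3 of complex IV changed by 2.86 ± 0.26 and 3.76 ± 0.39 with growth phase in wild-type cells. The share of mitochondrial ribosomal RNA also varied between libraries, and its part in these values was not tested. The list's median was 2.54 in wild-type cells, against -0.01 over all genes tested.

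Assembly factors, which help build the complexes without being subunits, were mixed at 48 h over log phase in wild-type cells, and less so in mms2Δi cells. From complex III on, counts and values are those of wild-type cells where no genotype is named. Of all genes tested 33.4% were called higher and 30.7% lower in mms2Δi cells, 33.9% and 32.9% in ysf3Δi cells, and 32.8% and 34.3% in wild-type cells, so several of the following counts lie near these shares. Of 27 for complex IV, 12 rose and 0 fell in mms2Δi cells, 12 rose and 3 fell in ysf3Δi cells, and 13 rose and 4 fell in wild-type cells. COX20 and COX15, which act on Cox2 and in heme A synthesis, had wild-type changes of 1.44 ± 0.16 and 1.23 ± 0.16. The median over the 27 was 0.57 in wild-type cells. For complex III 2 of 10 rose and 3 fell in wild-type cells, among them CBP4 at 1.16 ± 0.15 and CBP1, needed for cytochrome b mRNA, at -0.74 ± 0.15. For complex II 3 of 6 rose and 1 fell, with SDH6 at 3.06 ± 0.23 and the mitochondrial flavin carrier gene FLX1 at -1.95 ± 0.22. For the ATP synthase 6 of 12 rose and 4 fell, led by NCA3 at 3.12 ± 0.20 and ATP10 at 2.26 ± 0.30. In mms2Δi cells, 4 rose and 0 fell for complex III, 4 and 1 for complex II, and 6 and 0 for the ATP synthase. In ysf3Δi cells these counts were 3 and 0, 3 and 1, and 6 and 3. Of 10 genes of ubiquinone synthesis 2 rose and 5 fell, the falling ones including COQ2 at -1.94 ± 0.23 and COQ5 at -1.01 ± 0.16. Heme attachment to cytochrome c was served by 3 genes that all rose in each genotype, with CYC3, cytochrome c heme lyase, at 1.80 ± 0.17 and CYC2 at 0.80 ± 0.19. Of 3 supercomplex factors COX26 rose, with 16.64 and 21.3 CPM at 48 h and 0.265 and 0.1197 CPM in log phase in wild-type cells (6.59 ± 0.47), and RCF2 fell (-0.74 ± 0.14). The size of the COX26 change rests on few reads in log phase. Of 3 further ATP synthase genes STF2, at 2.04 ± 0.22, and TIM11, at 1.84 ± 0.21, rose. Of 7 membrane carriers 5 rose and 2 fell, with the ADP/ATP carrier gene AAC1 at 1.98 ± 0.19 and the porin gene POR2 at -1.79 ± 0.15. Wild-type medians were -0.15 for the complex III factors, 0.61 for those of complex II, 0.14 for those of the ATP synthase, -0.31 for ubiquinone synthesis, 0.85 for heme attachment, 0.07 for supercomplex factors, 1.84 for the further ATP synthase genes and 0.94 for the carriers.

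Of 14 regulators of respiratory genes 7 rose and 0 fell at 48 h in mms2Δi cells, 11 rose and 0 fell in ysf3Δi cells, and 10 rose and 0 fell in wild-type cells, against 33.4%, 33.9% and 32.8% of all genes tested called higher, with a wild-type median of 0.91. CAT8 and ADR1, activators of genes for growth without glucose, changed by 5.74 ± 0.25 and 4.29 ± 0.27 in wild-type cells. HAP4, the activating subunit of the factor that binds CCAAT, was singled out after its values were seen. HAP4 had 647 and 977 CPM at 48 h and 124 and 131 CPM in log phase in mms2Δi cells, and 517 and 391 CPM at 48 h and 120.3 and 124 CPM in log phase in ysf3Δi cells. Wild-type HAP4 had 327 and 368 CPM at 48 h and 115 and 89.8 CPM in log phase. It rose in each genotype, by 2.67 ± 0.22, 1.89 ± 0.22 and 1.76 ± 0.22. At 48 h HAP4 was 1.23 ± 0.21 higher on the log2 scale in mms2Δi cells than in wild-type cells (adjusted p = 0.0143). In ysf3Δi cells at 48 h HAP4 was at 0.38 ± 0.21 (adjusted p = 0.324). Whether the mms2Δi call of HAP4 holds with a library left out was not tested. In that comparison every call of a respiratory chain or ATP synthase member ended without replicate 1 of wild-type 48 h. Those calls also ended without replicate 2 of mms2Δi cells at 48 h, or without both libraries of the strain with alpha-cell markers. The DNA-binding partners HAP2, HAP3 and HAP5 were not called in wild-type cells, at 0.28 ± 0.15, -0.41 ± 0.21 and 0.41 ± 0.20.

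The targeted genes give no check of the deletions, since reads were counted per gene. MMS2 was at 0.12 ± 0.17 at 48 h and 0.40 ± 0.17 in log phase in mms2Δi cells over wild-type cells, and YSF3 at -0.10 ± 0.33 and 0.77 ± 0.31 in ysf3Δi cells; none of these passed the test. The authors' deposited tables of comparisons, which list genes under an adjusted p of 0.001, held 40 members as higher at 48 h in mms2Δi cells, 30 in ysf3Δi cells and 34 in wild-type cells. Over all genes they listed 2690, 2629 and 2865 in these comparisons, with 1287, 1265 and 1397 of them higher at 48 h. For mms2Δi cells over wild-type cells the authors' deposited tables list 16 members as higher at 48 h, and 7 as higher and 2 as lower in log phase. All genes listed there number 179 at 48 h, 158 of them higher, and 547 in log phase, 402 of them higher. For ysf3Δi cells the authors' deposited tables list 8 members as higher at 48 h, and 5 as higher and 1 as lower in log phase. All genes listed for ysf3Δi cells number 224 at 48 h, 204 of them higher, and 309 in log phase, 255 of them higher.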

How the data were processed

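Ribodepleted total RNA was sequenced from 12 libraries, in 6 groups of 2 strains given by the labels. The authors deposited whole-number read counts per gene, FPKM values and tables of comparisons whose columns are a log2 fold change, a p-value and its adjusted form, per the file headers. Bowtie2, HTSeq, DESeq2 and sacCer3 are named in the submitters' processing notes, without versions. Whether counting used strand is not given in the sources used here. IDs matched RefSeq for 6048 of 7126 genes, and no member overlapped another RefSeq gene.

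Counts were filtered with filterByExpr (6068 genes kept), scaled by TMM and tested with edgeR 4.0.16 (glmQLFit, glmQLFTest) in 1 model of all libraries, with a coefficient for each of the 6 groups, a common dispersion of 0.0279 and 6 residual degrees of freedom. R was 4.3.3 and limma 3.58.1. Log2 ratios of isoforms were tested by exact permutation of libraries. DESeq2 1.42.0 was an alternative. The code was tested on simulated data. The members, the gene lists and the rules for named genes (the isoform genes, NADH dehydrogenases, inhibitors, the 2 highest and 2 lowest of the larger complexes in wild-type cells, in each deletion comparison the members that ranked first by adjusted p, at most 6, and 2 genes of each other list) were chosen with earlier results of these data known, and the promoter window after the data were seen. Other members are named where they carry a count. Replicates of a group correlated at r of 0.980 to 0.993 across genes. Labels give strain numbers, and the same strain was sampled in both phases, so the numbers pair the phases; residuals of a strain in both phases correlated at 0.0605 in mms2Δi cells, 0.0374 in ysf3Δi cells and -0.164 in wild-type cells. Across genotypes a shared number is a different strain. The strains' relation to separate cultures or transformants is not stated, so p-values measure only the spread between these libraries.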

Additional observations from a re-analysis of the deposited data

How the results depend on the processing

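For the phase comparisons, leaving out 1 library at a time gave 42 to 42 members called in mms2Δi cells, 32 to 40 in ysf3Δi cells and 33 to 40 in wild-type cells. The replicate block, with strain as a term, called 42, 40 and 40, and pairing by strain ended no phase call. At an adjusted p of 0.001 the counts were 38, 30 and 31, against a fold of 1.5 they were 42, 30 and 32, and without both libraries of wild-type strain 2 they were 42, 39 and 30. Differences of phase changes stayed at 0 to 0 for both deletions.

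Deletion counts were less stable. For mms2Δi cells in log phase (21) the count was 0 at an adjusted p of 0.001, 0 against a fold of 1.5, 0 without both libraries of wild-type strain 2, and 0 to 22 with 1 library left out. At 48 h (26) it was 0, 0, 0 without wild-type strain 1, and 0 to 30. For ysf3Δi cells in log phase (20) it was 0, 1, 7 with only the libraries compared, 0 without wild-type strain 2, and 0 to 20. At 48 h (6) it was 0, 0, 11 by DESeq2's Wald test, 16 with only the libraries compared, 0 without wild-type strain 1, 0 with the replicate number as a block, and 0 to 9. The replicate numbers do not pair genotypes: deviations of same-numbered libraries correlated at 0.302 and 0.0378 at 48 h and 0.0673 and -0.0737 in log phase. Under that block the counts were 19 for mms2Δi and 19 for ysf3Δi cells in log phase, and 23 for mms2Δi cells at 48 h. A stricter threshold calls fewer by construction, and the cause of the other changes was not tested.

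Scaling by library totals shifted the median of all genes to -0.12 and -0.15 (mms2Δi cells, 48 h and log phase) and -0.10 and -0.18 (ysf3Δi cells). The CYC7/CYC1 difference ranged from 3.14 to 3.77 with 1 library left out, COX5B/COX5A from -0.58 to -0.34 (p up to 0.0606), and SDH9/SDH1 from -0.55 to -0.16. COX5B/COX5A was -0.54 without wild-type strain 1 and -0.50 in the sign-flip test with the replicate block, neither with a p under 0.05. SDH9/SDH1 was -1.001 with 5 CPM added, an amount close to the log-phase level of SDH9, and -0.995 in wild-type libraries alone. Of named gene results under an alternative, 59 of 1914 in the phase comparisons and 374 of 1254 in the deletion comparisons lost their call, and 0 reversed. Groups of 2 libraries limit all of these.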

Other observations

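The deposited FPKM values used a gene length that was not the coding length for the 3 members with an intron. The length implied by counts and FPKM was 1 nt for COX5B (coding length 456 nt), 6 nt for QCR10 (234 nt) and 198 nt for QCR9 (201 nt), each the length of the leftmost exon. For the 39 members without an intron it equalled the coding length. Levels in FPKM are therefore far too high for COX5B and QCR10, and only ratios of the same gene between libraries can be read from them; the levels given here were computed from the counts.

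Within the ATP synthase ATP15 was the least abundant gene per kb in all 12 libraries. The highest group mean per kb was that of ATP2 in both deletions and ATP17 in wild-type cells, but the strains differed in which gene was highest in wild-type cells and in ysf3Δi cells in log phase. ATP3 was highest in replicate 1 of log phase in ysf3Δi and in wild-type cells, and ATP2 in replicate 2 of wild-type 48 h. ATP17 had 473 and 331 CPM per kb in wild-type cells at 48 h and 308 and 355 in log phase, and ATP2 322 and 432 at 48 h and 126 and 99.1 in log phase. The ratio of the highest to the lowest group mean was 14.05 in mms2Δi cells, 15.8 in ysf3Δi cells and 27.4 in wild-type cells at 48 h, and 10.8, 9.29 and 46.0 in log phase. These are values of 2 libraries a group, with no test of the difference.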
